A study of Takifugu rubripes with 9 samples.

Results

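The eye library is 1 of 9 small RNA libraries prepared from wild-type adult *Takifugu rubripes* (torafugu), a pufferfish with a compact genome. It was chosen by its tissue label and was compared with the 7 other libraries analysed here, which are brain, intestine, liver, heart, slow muscle, ovary, and testis. Fast muscle was not analysed here. Tissue was dissected from 2 individuals, no agent or altered genotype was involved, and every tissue is represented by 1 library, so no value below carries a replicate error and no test between tissues was possible.

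The sample was the eye as an organ, and retina, pigment epithelium, lens, cornea, vessels, and eye muscles were not separated by the label. In such bulk RNA, fewer cells of a type and less RNA per cell cannot be told apart. Reads were summed by miRNA name and arm, where 5p and 3p are the 2 sides of the hairpin, and reads that the authors matched to a hairpin but not to an annotated mature arm were kept apart as precursor-only reads. Levels are counts scaled to 1000000 annotated miRNA reads of the same library (CPM). The eye library held 458800 annotated reads under 412 of the 631 names found in all libraries, and 1 read in eye is worth 2.18 CPM. Annotated reads in the other libraries ranged from 54540 in testis to 1207961 in intestine. Ratios and shares are given with exact Clopper-Pearson 95% intervals. These cover counting error only, since the reads were amplified and carry no tag for the molecule they came from.

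miRNAs are short RNAs that repress messenger RNAs, and bases 2 to 8 from the 5′ end, the seed, pair with the target. In mouse, the cluster of miR-183, miR-96, and miR-182 is known from photoreceptors and other sensory cells such as hair cells, miR-204 and miR-211 from the retinal pigment epithelium and lens, and miR-184 from the cornea and lens. miR-124 and miR-9 are miRNAs of neurons and of the developing nervous system, and the retina is part of the central nervous system.

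The sequences below carry the eye profile and are grouped by shared seed, which is in capitals. Each is the most abundant sequence of its name in eye, read from the deposited files and written as DNA from 5′ to 3′. The first group holds miR-204a and its relatives.
miR-204a-5p: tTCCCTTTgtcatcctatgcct
miR-204b-5p: tTCCCTTTgttatcctatgcct
miR-211-5p: tTCCCTTTgtcatcctttgcct
The next sequences show the miR-184 and miR-124 seeds.
miR-184-3p: tGGACGGAgaactgataaggg
miR-124-3p: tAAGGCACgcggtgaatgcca
miR-124b-3p: tAAGGCACgcggtgaatacca
The sensory cluster and miR-455 and miR-190b follow, and the miR-182 and miR-455 precursor sequences are those of the precursor-only reads.
miR-182 precursor: tTTGGCAAtggtagaactcacac
miR-96-5p: tTTGGCACtagcacatttttg
miR-183-5p: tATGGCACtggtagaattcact
miR-455-5p: tATGTGCCcttggactacatcg
miR-455 precursor: tGCAGTCCatgggcatatacac
miR-190b-5p: tGATATGTttgatattaggttg
The last 2 belong to names that were low in eye.
miR-10c-5p: tACCCTGTagatccggatttgt
miR-30d-5p: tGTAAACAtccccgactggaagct

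Counted from 1 at the 5′ end, miR-204b-5p differed from miR-204a-5p by C11T and miR-211-5p by A17T, both outside the seed. miR-124b-3p differed from miR-124-3p by G18A. Over their first 8 bases, the leading miR-182 and miR-96-5p sequences differed by A8C, the last base of the seed. The names miR-204b, miR-211, miR-124b, and miR-190b come from miRBase entries of other animals that the reads matched without mismatch. Among these animals were Tetraodon for miR-204b, mouse for miR-211, and Echinococcus for miR-124b.

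miR-124-3p, the neuronal miRNA, was the most abundant name in eye at 264089 CPM, and miR-204a-5p followed at 98278 CPM. The vertebrate erythroid miRNA miR-451-5p was next at 79220 CPM, followed by miR-124b-3p at 52727 CPM. The others among the 12 most abundant names were miR-145-5p (37574 CPM), miR-100-5p (29226 CPM), miR-22a-3p (24799 CPM), miR-125b-5p (24749 CPM), miR-29a-3p (19834 CPM), the precursor-only reads of miR-199 (19392 CPM), miR-126a-3p (19143 CPM), and miR-26-5p (17108 CPM). The first 5 of these names together held 53.2% of the annotated reads in eye. By bases 2 to 8, the seed AAGGCAC of miR-124 had 312524 CPM, and TCCCTTT of the miR-204 family had 97949 CPM.

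Across the 299 names with at least 100 CPM in a library, the eye profile was nearest to brain, with a Pearson r of 0.698 on log2(CPM + 1). The next was heart at 0.642, and the most distant was intestine at 0.436. These correlations are across names, which share both libraries' depth, and they are given as a description.

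A name was called eye-high where eye had at least 100 CPM and at least 2 times the CPM of the highest other library. Of 177 names with 100 CPM in eye, 26 (14.7%) were eye-high. They fell into few families, namely the sensory cluster, miR-204 with miR-211, miR-184, miR-455, and miR-190b, besides miR-205-5p, miR-730-5p, and 5 names known only from entries of mouse or Tasmanian devil. Together the 26 names held 15.6% of the annotated reads in eye, against 0.0946% in intestine to 0.700% in slow muscle. The ratio was at least 10 for 17 of them and at least 50 for 5, while the median ratio to the highest other library over the 299 names was 0.164. Brain was the highest other library for 8 of the 26 and slow muscle for 6. Among lists of tissue markers, the summed levels of the sensory cluster and of the list of miR-204, miR-211, and miR-184 were highest in eye. The lists were chosen with earlier results of these data known, and these 2 hold 8 and 7 of the 26 names. Their sums therefore describe the library and do not test its label.

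**Figure D1:**
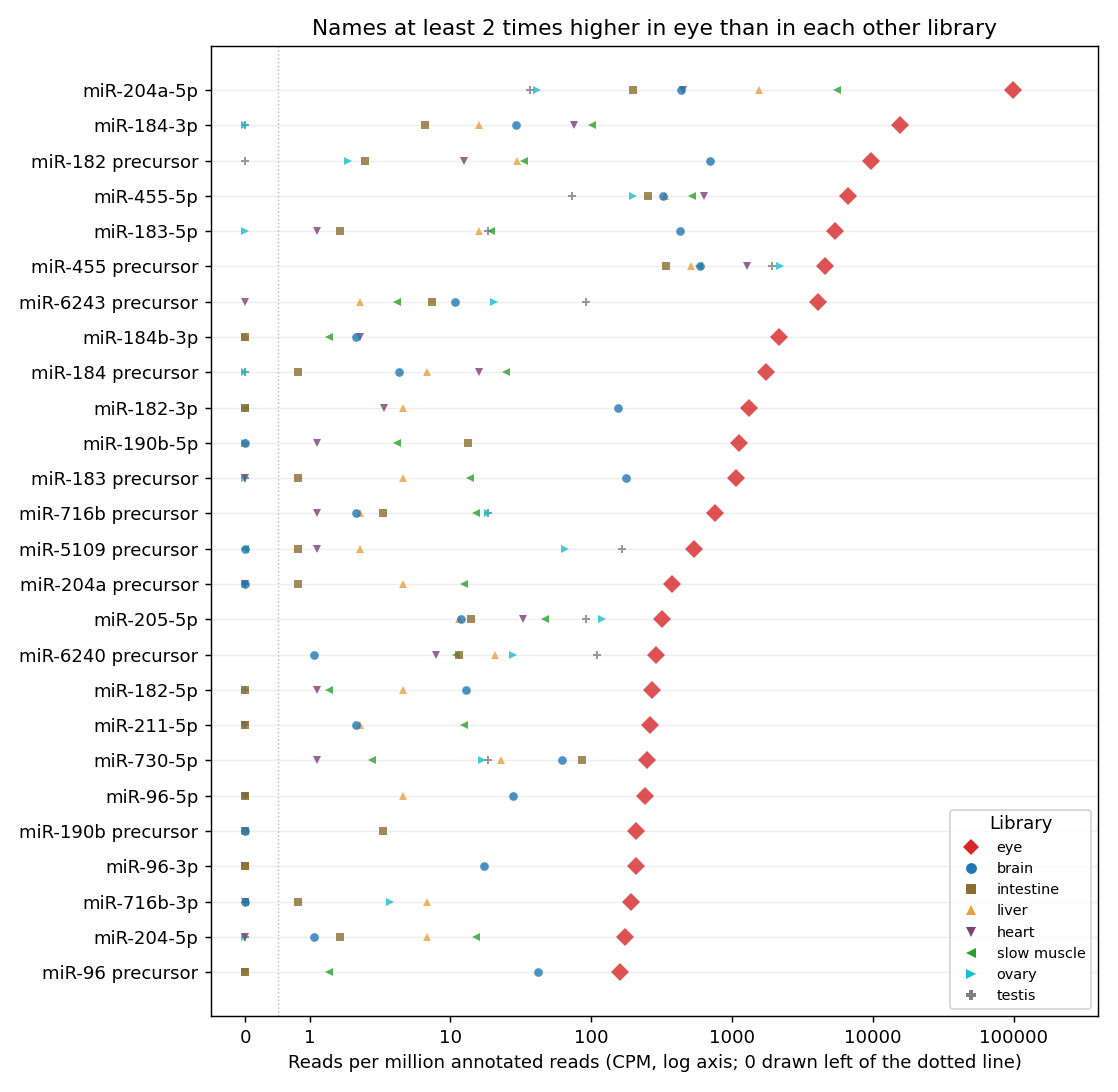
Levels of the 26 eye-high names, 1 row each, in CPM on a log axis, with 1 point per library and eye as the red diamond. Points at 0 reads are drawn left of the dotted line, where points of several libraries can lie on each other. The eye point lies right of all others in every row, from 98278 CPM for miR-204a-5p to 159 CPM for the precursor-only reads of miR-96.

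The 3 miRNAs of the sensory cluster, which lie next to each other inside 1 long noncoding RNA gene (LOC115246611) in the RefSeq annotation of assembly fTakRub1.2, were all higher in eye. Summed over its 8 names, the cluster had 18333 CPM in eye, against 1555 CPM in brain, 69.0 in slow muscle, 64.0 in liver, 18.3 in testis, 18.1 in heart, 4.97 in intestine, and 1.86 CPM in ovary. Eye was thus separated from brain by a ratio of 11.8 (11.2 to 12.5), and brain in turn stood above the remaining libraries. All 8 names with 100 CPM in eye were eye-high, beside 14.7% of all names tested.

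Within the cluster, the miR-182 hairpin gave the most reads. Its precursor-only reads, led by the 5p sequence shown above, had 9719 CPM in eye against 697 CPM in brain (ratio 13.9, 12.8 to 15.2). The reads named miR-182-3p had 1310 CPM in eye and 154 CPM in brain. miR-183-5p had 5355 CPM in eye and 429.2 CPM in brain (ratio 12.5, 11.2 to 13.9), and miR-96-5p had 242 CPM in eye and 28.0 CPM in brain (ratio 8.65, 5.60 to 13.8). miR-96 was thus the least abundant of the 3 in both libraries.

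Shares within a library do not depend on the library total. Of the reads of the cluster in eye, miR-182 held 61.6% (60.6 to 62.7), miR-183 35.0% (34.0 to 36.1), and miR-96 3.32% (2.94 to 3.72). In brain the shares were 55.5% (52.9 to 58.1) for miR-182, 38.9% (36.3 to 41.4) for miR-183, and 5.60% (4.47 to 6.92) for miR-96. The order of the 3 miRNAs was the same in the 2 libraries, and the intervals did not overlap for any of the 3.

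miR-183-5p had 2 frequent 5′ starts in eye. The form shown above, with the seed ATGGCAC, had 665 of the 2457 reads of the name. The second most abundant sequence began 1 base later, had 634 reads, and so carries another seed, TGGCACT.
miR-183-5p, later start: aTGGCACTggtagaattcactg
Over all names, the seed ATGGCAC had 3226 CPM in eye against 286 CPM in brain, and TGGCACT had 2132 CPM in eye with a ratio of 14.4 to brain.

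miR-204 is a regulator of the lens and retina in mouse and medaka, and the torafugu gene mir204a lies inside the protein-coding gene LOC101068071. miR-204a-5p had 98278 CPM in eye, followed at a distance by slow muscle (5576 CPM), liver (1562 CPM), heart (447 CPM), brain (437 CPM), intestine (197 CPM), ovary (40.9 CPM), and testis (36.7 CPM). Eye was 17.6 times slow muscle (17.1 to 18.2) and 225 times brain (204.1 to 248.7). The testis value rests on 2 reads. The 45090 eye reads were dominated by the 22-base sequence shown above, which held 87.0% of them.

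miR-204b-5p, which has the same seed, showed another order of libraries. It had 4152 CPM in eye, against 6876 in brain, 477 in testis, 199.02 in ovary, 24.8 in slow muscle, 22.9 in liver, 7.93 in heart, and 4.97 CPM in intestine. Brain and not eye was highest, with a ratio of eye to brain of 0.604 (0.574 to 0.636) that stayed under 1 in each of the 4 scalings run, between 0.572 and 0.810. It was the only name of the miR-204, miR-211, and miR-184 list with 100 CPM in eye that was not eye-high. The other 7 of the 8 were, beside 14.7% of all names tested.

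The 2 forms therefore took different shares of their common reads. miR-204a-5p held 95.9% (95.8 to 96.1) of the reads of miR-204a-5p and miR-204b-5p in eye. It held 5.97% (5.42 to 6.56) in brain, 17.1% (11.01 to 24.67) in ovary on 22 reads, and 7.14% (0.877 to 23.5) in testis on 2 reads. In intestine, liver, heart, and slow muscle it held 97.5% to 99.6%. Eye thus stood with these 4 libraries and apart from brain and gonads in the form used, although its summed level was far above theirs.

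**Figure D2:**
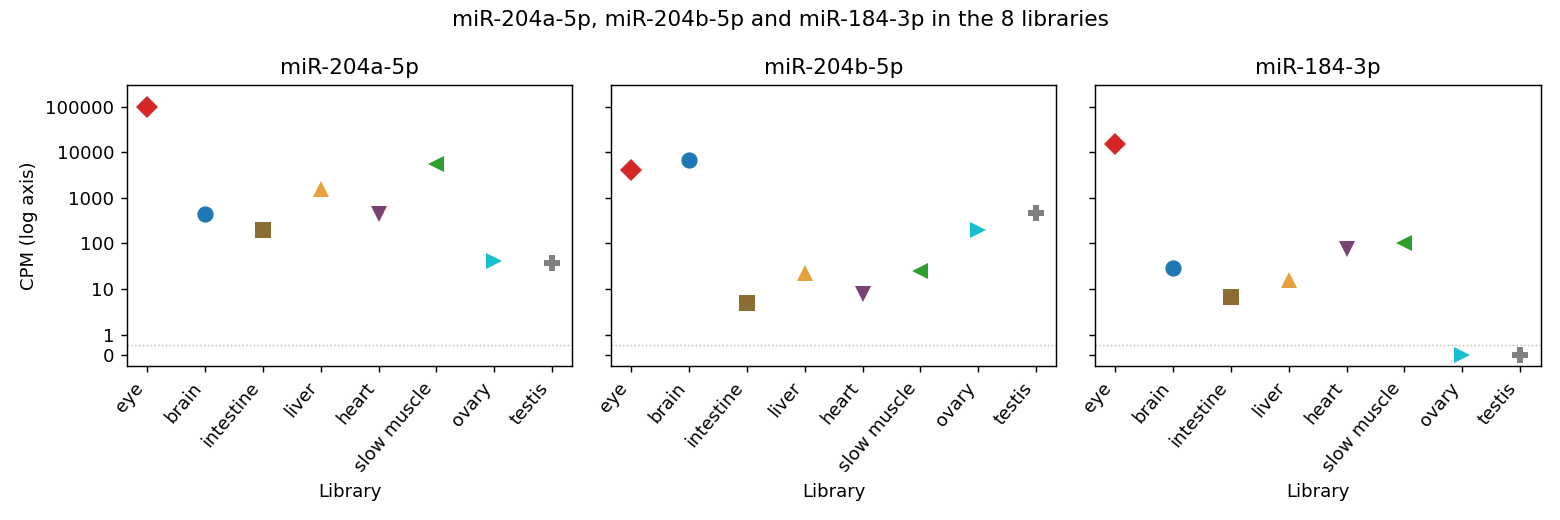
Levels of miR-204a-5p, miR-204b-5p, and miR-184-3p in the 8 libraries, in CPM on a log axis, with 1 point per library, no error because each tissue has 1 library, and points at 0 reads drawn below the dotted line. Eye is far above the other libraries for miR-204a-5p (98278 CPM) and miR-184-3p (15480 CPM), whereas brain (6876 CPM) is above eye (4152 CPM) for miR-204b-5p.

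miR-211-5p, a close relative of miR-204 known from pigment cells in mammals, was much rarer at 259 CPM in eye against 12.4 CPM in slow muscle (ratio 20.9, 10.6 to 46.8). Its leading sequence differs from that of miR-204a-5p by 1 base, A17T. The ratio of eye to slow muscle given above for miR-204a-5p lies inside this interval. Whether the reads named miR-211-5p are altered reads of miR-204a-5p was not tested. Reads named miR-204-5p, which were longer variants, had 174 CPM in eye and 15.2 CPM in slow muscle. The precursor-only reads of miR-204a had 375 CPM in eye and 12.4 CPM in slow muscle, and the leading one was not annotated as a mature form.
miR-204a precursor: gCAGGGACagcaaagggatgc
miR-204a-5p itself began at its main start in 95.1% of the eye reads (94.9 to 95.3), inside the 92.8% to 95.4% of the other 5 libraries with 50 reads. A start 1 base earlier, with the seed TTCCCTT, had 4433 CPM in eye over all names.

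miR-184, known in mouse and human from the corneal epithelium and lens, gave the 2 largest ratios to any other library. miR-184-3p had 15480 CPM in eye, against 101 in slow muscle, 75.9 in heart, 29.04 in brain, 16.0 in liver, and 6.62 CPM in intestine. No read was found in ovary or testis, where 3 reads correspond to 5.58 and 55.0 CPM. The ratio of eye to slow muscle was 153.7 (122.1 to 196.3). Summed over its 5 names, miR-184 had 19453 CPM in eye and 127 CPM in slow muscle, a ratio of 153.2 (124.8 to 190.3).

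Reads named miR-184b-3p, after entries of a polychaete and an aphid, had 2140.4 CPM in eye. Their level was at most 2.27 CPM elsewhere, which is 2 reads in heart, so the ratio of 944 has a wide interval (261 to 7807). They share the seed GGACGGA with miR-184-3p. Whether the reads named miR-184b-3p are altered reads of miR-184-3p was not tested. The precursor-only reads of miR-184, led by another sequence, had 1750.2 CPM in eye against 24.8 CPM in slow muscle (ratio 70.5, 44.3 to 119.5).
miR-184 precursor: tCCTTATCacttttccagcccag

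Across the 8 libraries, the 3 names whose log2 levels were most like those of miR-204a-5p, of 298 ranked, were the precursor-only reads of miR-184 (Pearson r 0.9555), miR-184-3p (r 0.9516), and miR-204-5p (r 0.9502). These values rest on 8 libraries, of which eye lies far from the rest.

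**Figure D3:**
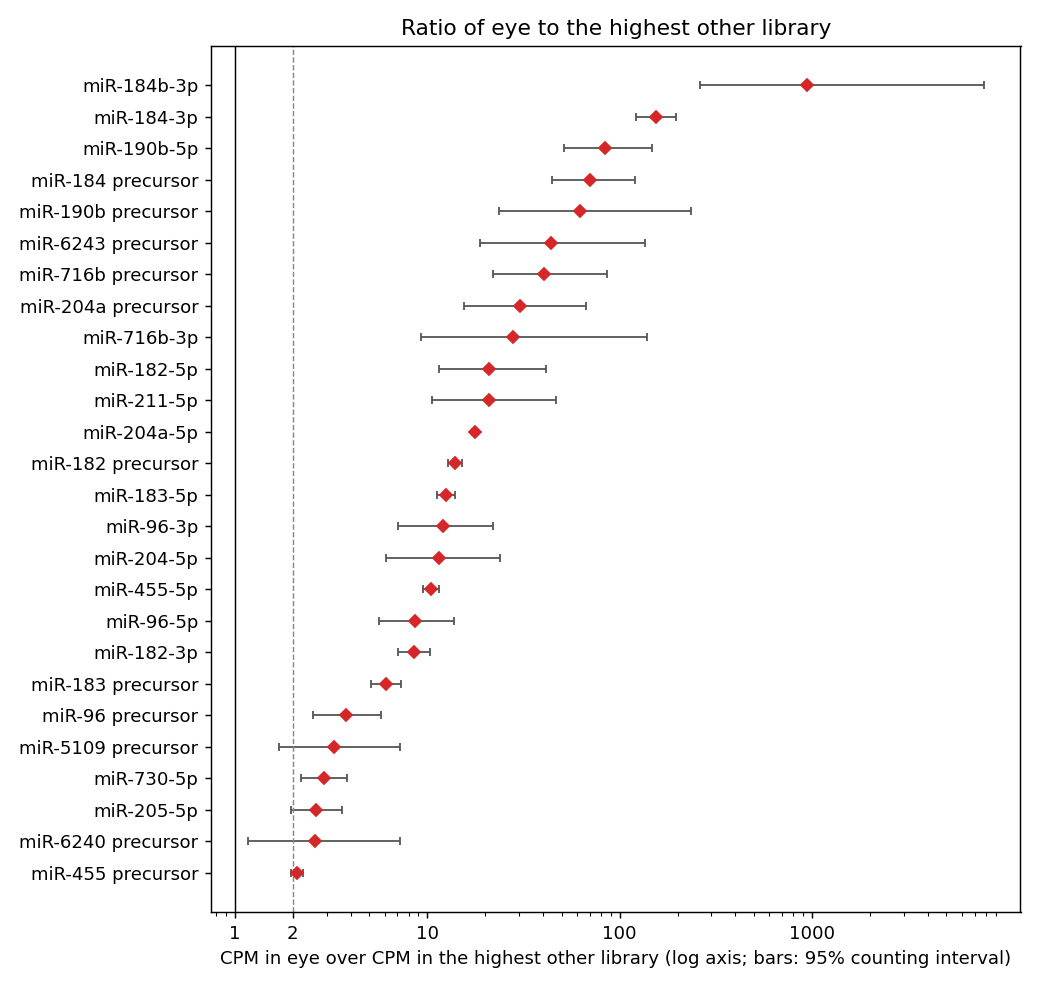
Ratio of the CPM in eye to the CPM in the highest other library for the 26 eye-high names, on a log axis, with exact 95% counting intervals as bars. The solid line marks a ratio of 1 and the dashed line the ratio of 2 used to call a name. The widest interval belongs to miR-184b-3p (261 to 7807), and the intervals of miR-205-5p and of the precursor-only reads of miR-455, miR-5109, and miR-6240 reach below 2.

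miR-455, whose gene lies inside the fibrillar collagen gene col27a1a and which is known from cartilage in mouse and zebrafish, was also higher in eye. miR-455-5p had 6613 CPM in eye, against 633 in heart, 516 in slow muscle, 336 in liver, 325 in brain, 252 in intestine, 197 in ovary, and 73.3 CPM in testis (ratio to heart 10.45, 9.55 to 11.46). The precursor-only reads of miR-455, led by the sequence shown above, had 4592 CPM in eye and 2191 CPM in ovary (ratio 2.10, 1.95 to 2.25), the smallest ratio among the eye-high names, and it ran from 1.43 to 3.42 over the scalings. The 3 leading precursor-only sequences began at 3 adjacent positions and held 15.5% to 16.1% of these reads each.

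The share of miR-455-5p among miR-455-5p and precursor-only reads was 59.0% (57.7 to 60.4) in eye. It was 46.9% in slow muscle, 42.5% in intestine, 39.7% in liver, 35.5% in brain, 33.2% in heart, 8.26% in ovary, and 3.67% in testis, so the interval of eye lay above every other share. This share was computed after the values of both names had been seen. miR-140, another cartilage miRNA, inside wwp2, did not share the pattern, with 11245 CPM in eye and 10515 CPM in heart over its 3 names (ratio 1.07, 1.03 to 1.11, and 1.011 to 1.305 over the scalings).

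miR-190b-5p had 1112 CPM in eye, 13.2 CPM in intestine, 4.14 in slow muscle, and 1.13 CPM in heart, with 0 reads in the other 4 libraries. The ratio of eye to intestine was 83.9 (51.2 to 148). The sequence shown above, from an Anolis entry, held 33.9% of the 510 eye reads of miR-190b-5p. The next, from a zebrafish entry, held 26.3% and differed from it outside the seed. Whether the reads named miR-190b-5p are altered reads of 1 miRNA was not tested. The related miR-190-5p had 560 CPM in eye and 559 CPM in heart, so the 2 names differed in their pattern. miR-190b-5p held 66.5% (63.0 to 69.8) of the reads of both in eye, against 0 of 387 in brain, where the upper bound of the interval is 0.949%, and 11.6% (6.77 to 18.1) in intestine.

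miR-205-5p, known from surface epithelia in mammals, had 316 CPM in eye against 119 CPM in ovary (ratio 2.65, 1.97 to 3.62, and 1.82 to 5.92 over the scalings). miR-203-3p, a miRNA of mammalian skin, was highest in eye at 357 CPM with slow muscle at 201 CPM, and did not reach the ratio of 2 (1.77, 1.41 to 2.23). The epithelial miR-200 and miR-141 names had low levels in eye beside intestine, with 477 CPM of miR-200a-3p in eye against 63866 CPM in intestine. Over the whole epithelial list, eye had 1480 CPM and intestine 97083 CPM. The median of the other libraries was 1741 CPM, so eye was near it. For this list, 1 of 4 names with 100 CPM in eye was eye-high, beside 14.7% of the 177 names tested. miR-730-5p, a fish miRNA, had 251 CPM in eye and 86.1 CPM in intestine (ratio 2.91, 2.21 to 3.83).

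The 5 remaining eye-high names, miR-6243, miR-5109, miR-6240, and 2 of miR-716b, matched only entries of mouse or Tasmanian devil and held 0.582% of the eye reads. The reads named miR-6243 had 4048 CPM in eye and 91.7 CPM in testis, which is 5 reads. In eye, 98.9% of them were 1 sequence of 18 bases, and reads of 18 or 19 bases made up 97.7% of miR-6240 and 77.8% of the miR-716b precursor reads. Whether these reads derive from miRNAs was not tested, and 21 eye-high names are left without them. The 21 still include names taken from entries of other animals, such as miR-184b-3p, miR-211-5p, and miR-190b-5p.

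Neuronal miRNAs separated eye from brain by composition more than by sum. The neuronal list of 11 miRNAs had 355209 CPM in eye and 371068 CPM in brain, against a highest value of 13286 CPM in liver among the other 6 libraries. The ratio of eye to brain was 0.957, and between 0.907 and 1.28 over the scalings, so no order between the 2 can be given. miR-124 held 94.2% (94.1 to 94.3) of the reads of the list in eye and 59.95% (59.79 to 60.12) in brain.

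miR-124, summed over its 10 names, had 334719 CPM in eye against 222472 CPM in brain, with 748 CPM in liver next and 0 reads in ovary. The ratio of eye to brain was 1.505 (1.495 to 1.515) and ran from 1.43 to 2.02 over the scalings. miR-124b-3p, which differs outside the seed, held 16.6% (16.4 to 16.8) of its reads and those of miR-124-3p in eye and 15.2% (15.1 to 15.4) in brain. The 2 forms thus stood in nearly equal proportion in the 2 libraries, although the intervals do not overlap. Whether the reads named miR-124b-3p are altered reads of miR-124-3p was not tested.

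The other 10 miRNAs of the list were lower in eye than in brain. miR-9, which acts in neural progenitors, had 7561 CPM in eye and 40665 CPM in brain (ratio 0.186, 0.180 to 0.192), and the highest of the other libraries was testis at 238 CPM. miR-129 had 8121 CPM in eye and 36909 CPM in brain (ratio 0.22, 0.213 to 0.228). In both, eye was therefore second of 8 libraries. miR-128, a miRNA of mature neurons, had 1927 CPM in eye and 22297 CPM in brain (ratio 0.0864, 0.0807 to 0.0924). Heart, at 2465.5 CPM, was above eye for miR-128.

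The smallest ratios belonged to miR-137, miR-7, and miR-153, which are brain-enriched miRNAs in mouse. miR-137 had 39.2 CPM in eye, which is 18 reads, and 2659 CPM in brain (ratio 0.0147, 0.00873 to 0.0234). miR-7 had 113 CPM in eye and 5228 CPM in brain, and miR-153 had 56.7 CPM in eye and 2198 CPM in brain. Some non-neural libraries were above eye for both, led by testis for miR-7 (1320 CPM) and liver for miR-153 (389 CPM). miR-138 was higher in liver (9181 CPM) than in eye (1133 CPM), and heart had more miR-218 (2118 CPM) than eye (1181 CPM). The miR-132 and miR-212 pair, which is induced by neuronal activity in mammals, had 288 and 69.7 CPM in eye, against 3350 and 1176 CPM in brain. Ovary had 292 CPM of miR-132, close to eye.

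**Figure D4:**
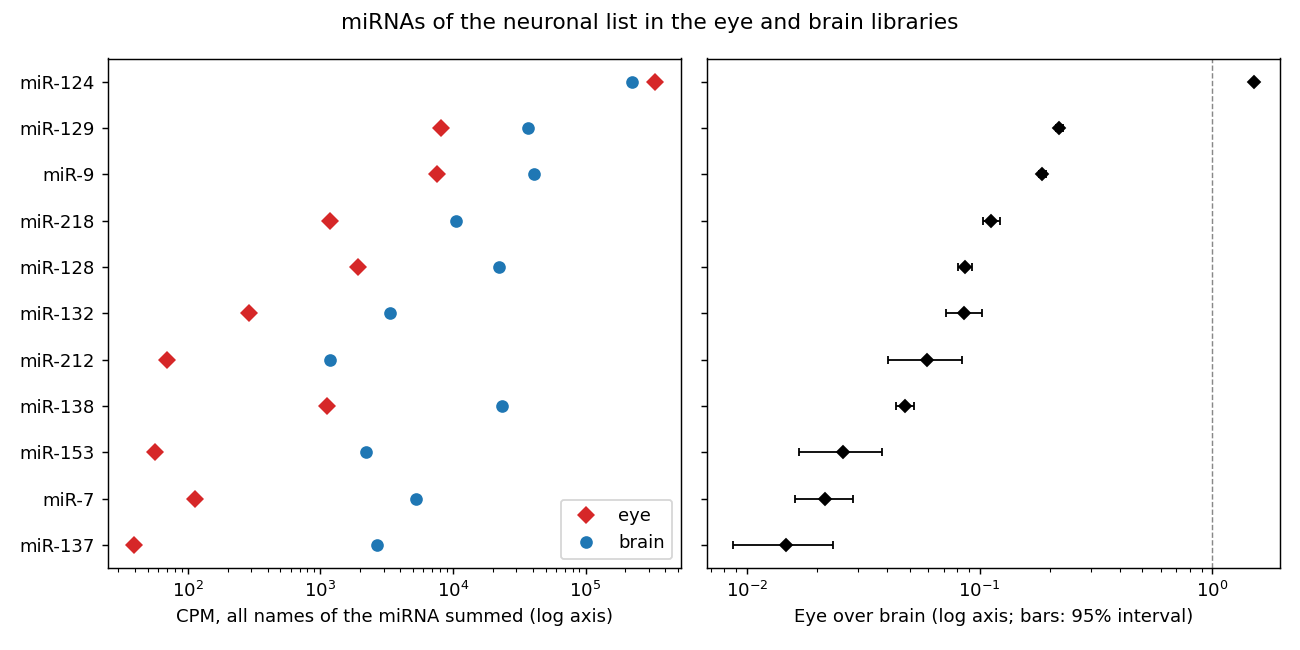
Left, levels of the 11 miRNAs of the neuronal list in the eye and brain libraries, with all names of a miRNA summed, in CPM on a log axis. Right, the ratio of eye to brain with its 95% counting interval as bars and a dashed line at 1. miR-124 lies right of the line at 1.505, and the other 10 lie left of it, from 0.22 for miR-129 to 0.0147 for miR-137.

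By name, brain had at least 2 times the CPM of eye for 25 of the 30 neuronal names with 100 CPM in brain, beside 49.7% of all 193 names with that level in brain. Eye had at least 2 times brain for 0 of the 13 neuronal names with 100 CPM in eye, beside 30.5% of the 177 names tested. The 5 names within a ratio of 2 were the miR-124 names. The glial miRNAs were also lower in eye than in brain, with 8141 CPM in eye and 36999 CPM in brain for the sum. Slow muscle, at 16360 CPM, was above eye as well, so this sum is not particular to neural tissue. miR-219-5p, which acts in myelinating oligodendrocytes, was near its limit of detection with 13.1 CPM (6 reads) in eye against 458 CPM in brain.

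Not every miRNA with a high level in brain was low in eye. miR-181a-5p, known from the inner retina of fish and mouse, had 3771 CPM in eye and 3785 CPM in brain, against a highest value of 844 CPM elsewhere. All 5 names of the miR-181 family with 100 CPM in eye were at least 2 times the median of the other libraries, beside 45.2% of the 177 names tested. None of the 5 was eye-high, beside 14.7% of the 177. miR-135b-5p, named after its values were seen, had 8991 CPM in eye and 17689 CPM in brain, while liver, the next library, had 519 CPM.

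A name was called eye-low where eye had at most 0.5 of the lowest other library and that library had at least 100 CPM. This held for 3 (3.37%) of 89 names. miR-10c-5p had 5 reads in eye, or 10.9 CPM (3.54 to 25.4), against 5422 in liver, 2929 in brain, 1907 in intestine, 1817 in ovary, 1730.2 in slow muscle, 568 in testis, and 469 CPM in heart. It lies among the hoxb genes in the RefSeq annotation, inside hoxb3a and between hoxb5a and hoxb4a. Summed over the Hox cluster miRNAs miR-10 and miR-196, eye had 48.0 CPM (22 reads), against 516 CPM in heart to 5694 CPM in slow muscle, and eye was lowest under each of the 4 scalings.

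miR-30d-5p had 253 CPM in eye, against 13916 in testis, 5133 in slow muscle, 4221 in intestine, 4061 in liver, 1971 in heart, 1803 in brain, and 852 CPM in ovary. miR-462-5p, a fish miRNA of interferon responses, had 255 CPM in eye, against 13078 in intestine, 2143 in ovary, 2129 in heart, 1907 in testis, 894 in slow muscle, 823 in liver, and 610 CPM in brain. The 3 calls are lost with all reads of 18–25 nt as the total, which lowers the values of ovary and testis. On that scale eye was still the lowest for miR-10c-5p, at 0.246 of testis, which had then under 100 CPM, and for miR-30d-5p, at 0.869 of ovary. For miR-462-5p it was not, with eye at 1.71 times testis.

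miR-30d-5p was set apart from its neighbours in the family. The gene of mir30d stands next to mir30b, yet miR-30b-5p had 1735 CPM in eye against 897 CPM in ovary and 10928 CPM in slow muscle. miR-30c-5p had 1772 CPM in eye and 1882 CPM in ovary. Of the 7 miR-30 names with 100 CPM in a library, 1 was eye-low and 4 were at most 0.5 of the median of the others, beside 30.8% of all names tested for that call. Over all names, the seed GTAAACA of miR-30d-5p summed to 5074 CPM in eye and 29682 CPM in slow muscle.

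Further miRNAs were below the median of the other libraries. miR-192-5p, a digestive miRNA, had 146.03 CPM in eye against a median of 1543 CPM and 352792 CPM in intestine. The immune regulator miR-146a-5p had 508 CPM in eye and a median of 1588 CPM, and miR-210-3p, a hypoxia-induced miRNA, had 837 CPM in eye and a median of 2219 CPM. miR-107-3p had 336 CPM in eye and a median of 1014 CPM, and miR-92a-3p 639 CPM against 1637 CPM. None of the 9 miR-17-92 names with 100 CPM in eye was above the median by a ratio of 2, beside 45.2% of the 177 names tested. The cluster summed to 19638 CPM in eye, against 31937 CPM in intestine to 181573 CPM in testis. With totals of all 18–25 nt reads, however, eye was 1.39 times testis for this sum. Other widespread families were within the range of the libraries, with 22003 CPM of let-7 in eye and 36417 CPM in heart, 66681 CPM of miR-99, miR-100, and miR-125 in eye and 163131 CPM in brain, 28832 CPM of miR-29 in eye and 38302 CPM in testis, and 19954 CPM of miR-26 in eye and 39907 CPM in slow muscle. No name of these 4 lists was eye-high or eye-low, beside 14.7% and 3.37% of all names tested for these calls.

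The smooth muscle miRNAs miR-143-3p and miR-145-5p were among the low ones. miR-145-5p had 37574 CPM in eye, against 583322 in ovary, 289476 in testis, 164438 in intestine, 111849 in liver, 98410 in heart, 83306 in slow muscle, and 25855 CPM in brain. Eye was second lowest on this scale, but for the summed list of both miRNAs it was 1.68 times testis with totals of 18–25 nt reads. miR-143-3p had 571 CPM in eye and 985 CPM in brain, the lowest of the others.

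Striated muscle miRNAs were present in eye above the non-muscle libraries. The list of miR-1, miR-133, miR-206, and miR-499 summed to 18690 CPM in eye, against 385240 in slow muscle, 170999 in heart, 2692 in brain, 2552 in intestine, 1324 in ovary, 302 in liver, and 201.69 CPM in testis. All 7 of its names with 100 CPM in eye were at least 2 times the median of the others, beside 45.2% of the 177 names tested. miR-206-3p, which is specific to skeletal muscle, had 2097 CPM in eye and 91929 CPM in slow muscle, and heart was lower at 116 CPM. miR-499-5p had 1160 CPM in eye, against 23346 CPM in heart and 9945 CPM in slow muscle. The part of muscle tissue in the eye sample was not tested.

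Erythroid miRNAs were high as well. miR-451-5p had 79220 CPM in eye, against 88061 in heart, 25276 in liver, 25069 in slow muscle, 21463 in ovary, 20964 in brain, 7169 in testis, and 2457 CPM in intestine. Its ratio of eye to heart was 0.8996 and ran from 0.850 to 1.10 over the scalings, so these 2 libraries cannot be ordered. The precursor-only reads of miR-144, from the same erythroid transcript in vertebrates, had 1872 CPM in eye and 2109.5 CPM in heart. miR-126, the endothelial miRNA, had 26548 CPM in eye and 164148 CPM in heart, so eye was well below heart. The leukocyte list was below the median in eye, with 5050.1 CPM against 27052 CPM in ovary, a median of 9773 CPM over the other libraries, and 4985 CPM in brain. With totals of 18–25 nt reads, however, eye was 6.88 times testis for the leukocyte list. The amount of blood in the sample was not tested.

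miR-2188-5p, a miRNA that has been linked to vessel growth in zebrafish, had 11027 CPM in eye, against 16035 in heart, 6056 in brain, 3995 in ovary, 3710 in slow muscle, 3300.3 in testis, 2872 in liver, and 476 CPM in intestine. The fish list, with miR-462 and miR-2188, summed to 11371 CPM in eye and 18323 CPM in heart. The cartilage and fibroblast list had 49603 CPM in eye, against 60357 in liver, 55808 in slow muscle, 47968 in heart, 42674 in ovary, 25926 in testis, 17398 in intestine, and 7226 CPM in brain. Its ratio to the highest other library ran from 0.748 to 1.07 over the scalings, so eye cannot be ordered among the leading libraries. The digestive list had 190 CPM in eye against 385541 CPM in intestine, and the gonad list of miR-202 and miR-430 had 0 reads in eye, against 17538 CPM in ovary and 8471 CPM in testis. In eye, 3 reads correspond to 6.54 CPM.

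**Figure D5:**
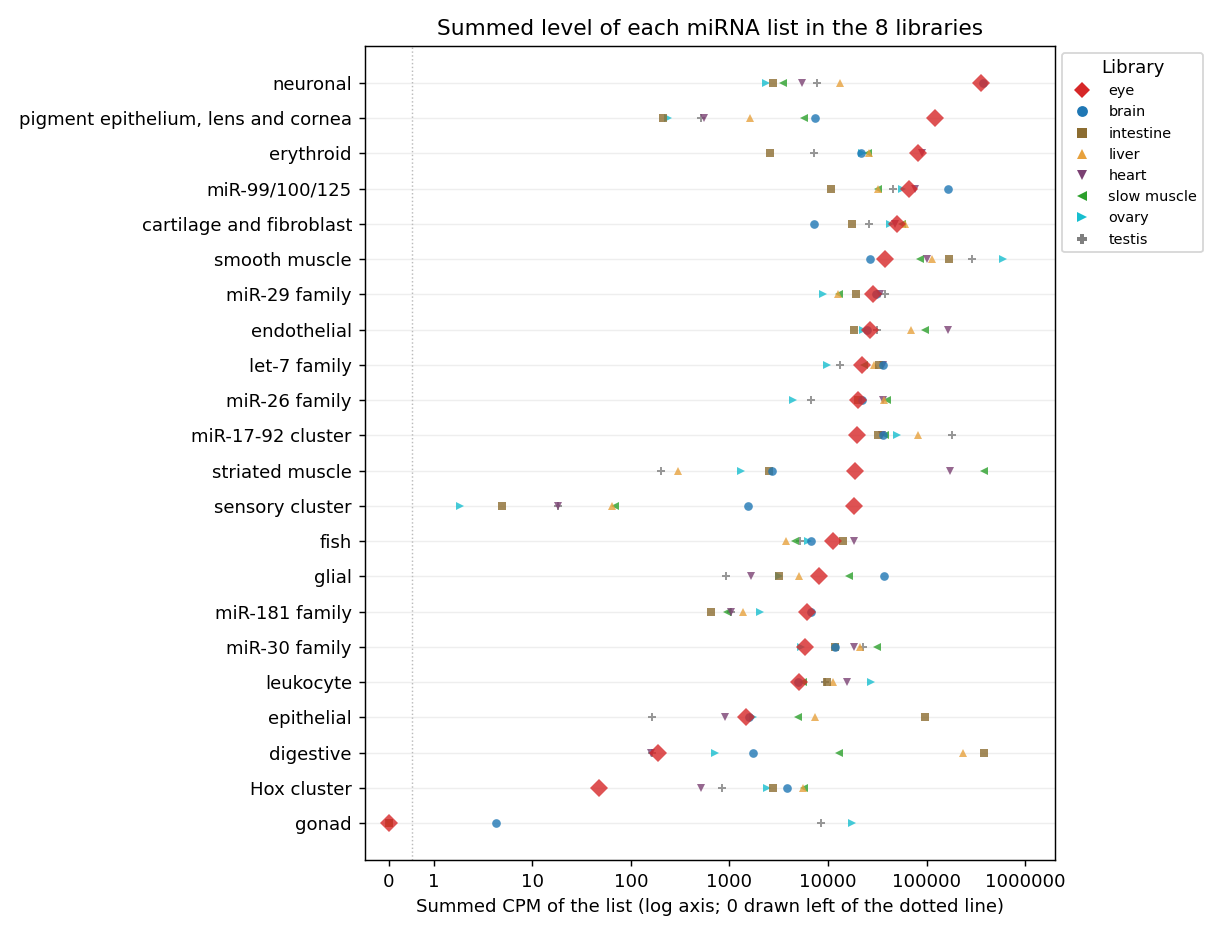
Summed CPM of each of 22 miRNA lists on a log axis, with 1 point per library and eye as the red diamond, ordered by the level in eye. Eye is above every other library by a ratio of at least 2 only for the pigment epithelium, lens and cornea list (122707 CPM) and the sensory cluster (18333 CPM), and it is below every other library for the Hox cluster (48.0 CPM) and the miR-17-92 cluster (19638 CPM).

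By annotated arm reads alone, the use of the 2 arms in eye was close to the range of the other libraries. Among 123 miRNAs with at least 50 annotated arm reads in eye and in each of 2 or more other libraries, 0 (0%) had a share of 5p reads in eye 10 percentage points or more outside the range of the others, and 4 (3.25%) lay outside by any amount. The farthest was miR-146a, with 95.5% 5p reads (92.1 to 97.7) in eye against 97.5% to 99.7%, the nearest of which lay inside the interval of eye. miR-206, miR-499, and miR-126 lay outside by at most 0.564 points. For most of the 123, 1 arm held all annotated arm reads in eye, as for miR-204a and miR-124. Where only 1 arm has a mature name the share cannot vary, so the count of 0 says little about arm use. Precursor-only reads, 8.42% of the eye reads, do not enter these shares, and they include most reads of miR-182 and many of miR-455. With the precursor-only reads of miR-455 set beside it, miR-455-5p held 59.0% in eye, above the range of 3.67% in testis to 46.9% in slow muscle. The leading precursor-only sequence of miR-455, shown above, is not the 5p one. These reads were not placed on the hairpin, so whether the arm use of miR-455 differed in eye was not tested. The arm shares above therefore do not describe such miRNAs. A further 9 miRNAs had 50 arm reads in eye and in 1 other library, which was brain for 7. Among them, miR-183 had 100% 5p among its named arm reads in both libraries, and miR-9 had 99.1% in eye against 98.8% in brain. Precursor-only reads are again left out. For miR-183 these were 491 reads in eye, and their leading sequence was not the 5p one, so 100% does not mean that 1 arm alone was present. The named arms of miR-182 had 17.1% 5p reads (14.4 to 20.1) in eye against 7.74% in brain. Most miR-182 reads in eye were precursor-only, were led by the 5p sequence shown above, and are left out of this share. The 17.1% therefore does not mean that the 3p arm prevailed. Whether the arm use of miR-182 differed between eye and brain was not tested. The largest distance, 16.1 points, was that of miR-727, with 53.2% (40.1 to 66.0) in eye against 69.3% in brain.

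The 5′ starts, which set the seed, also stayed near the range of the others. Of the arms with 50 reads in eye and in each of 2 or more other libraries, 0 (0%) had a share at the main start 10 points or more outside the range of the others, although 42 (33.9% of those tested) lay outside by any amount. The main start held a median of 99.1% of an arm's reads in eye. The farthest was miR-100a-5p, with 83.9% (71.7 to 92.4) of 56 reads in eye against 73.3% and 74.3% in the 2 other libraries with enough reads. miR-214-3p, with 59.1% (55.5 to 62.6) of 758 reads in eye against 62.9% to 94.3%, was the farthest on the lower side, and its second start was 1 base earlier. For miR-203-3p the share was 63.4% (55.6 to 70.8) in eye, against 54.1% to 58.1% in 3 libraries. miR-126b-3p and miR-181b-5p lay outside by 1.89 and 1.49 points, within the interval of the eye share. For miR-100a-5p and miR-203-3p, the nearest share of another library also lay inside the interval of eye, whereas for miR-214-3p it did not. For 8 further arms only 1 other library had 50 reads, which was brain for 6. Among these, miR-183-5p began at its main start in 59.9% of the reads (57.9 to 61.9) in eye against 65.2% in brain, and miR-9-5p in 83.8% (82.3 to 85.3) in eye against 75.5% in brain. The reads named miR-124a-3p stood farthest apart, at 64.3% (57.8 to 70.5) in eye against 85.2% in brain, whereas miR-124b-3p had 99.1% in eye and 98.5% in brain.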

How the data were processed

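Small RNA of 9 torafugu tissues was sequenced by the authors on a SOLiD 3 instrument after size fractionation, and reads of 18–25 nt were matched to miRBase in CLC genomics workbench. The authors deposited 1 line per sequence with its raw read count, all with 0 mismatches to the assigned entry. They hold mature matches with altered ends and precursor-only matches, which are part of each library, and reads that the authors annotated under looser criteria were not used here. No genome build or coordinates are given in the sources used here, and RefSeq (fTakRub1.2) served for gene names and neighbours only.

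Counts were summed by name without copy suffix and by arm, and scaled to CPM of the annotated total. Names were called by size, with 2-fold and 100 CPM as limits, since 1 library per tissue allows no test. The computation of the ratio and its interval was checked on simulated reads with counting error only. Such reads hold no amplification or tissue variation, so the check does not bear on how reliable the calls are. Arm and start shares needed 50 reads in eye and in each of at least 2 other libraries. For 5′ starts, sequences of an arm were aligned to the leading one without gaps (shift at most 4 nt, overlap 14 nt or more, 2 mismatches allowed).

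Named are the 12 most abundant names, the eye-high and eye-low names, up to 10 names below the median with a median of at least 1000 CPM, list names with 1000 CPM, and the arms and starts farthest outside. Some further names are given for families described. The members and the 22 lists were chosen with earlier results of these data known. A sequence named after several miRNAs was counted under the name that the authors gave it, and near-identical family members are uncertain. Python 3.11.15 with numpy 2.4.6, pandas 2.3.3, scipy 1.17.1, and matplotlib 3.10.9 was used, and R 4.3.3 with edgeR 4.0.16 for TMM factors. Alternatives were 18–25 nt totals, TMM, totals without the 5 leading names, match types, collapsed names, other limits, and libraries left out. Reads summed by bases 2 to 8 and leaving out the names of miR-6243, miR-716b, miR-5109, and miR-6240 were added after seeing the data.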

Additional observations from a re-analysis of the deposited data

How the results depend on the processing

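All 26 eye-high names stayed at a ratio of 2 or more with 18–25 nt totals, with TMM, and without the testis library, and the lowest ratio was 2.72, 2.51, and 2.10. With totals that leave out the 5 leading names of each library, 24 did, and all 26 stayed above 1 (lowest 1.43, precursor-only reads of miR-455). TMM moved the median log2 ratio by 0.267, so ratios under it are to be read against that shift. With 18–25 nt totals, on which all values are smaller, 16 eye-high names (all among the 26), 0 eye-low, and 19 below-median names (17 of them among the 45) passed the 100 CPM limit, against 26, 3, and 45, and miR-462-5p in eye was 1.71 times the lowest other library. Mature matches alone gave 15 eye-high names. Identical matches alone gave 9 eye-high names, with 41.6% of the names tested above the median, against 45.2%. Collapsing names to the miRNA number gave 13 eye-high and 23 below-median names, with 40.4% above the median. A limit of 10 CPM gave 8 eye-low and 71 below-median names, with 41.0% above the median, and 1000 CPM gave 12 eye-high, 0 eye-low, and 19 below-median names, with 50.6% above the median. A fold of 1.5 gave 6 eye-low and 69 below-median names, and a fold of 5 gave 1 and 9. Without the brain library, 42 names were eye-high and 9 eye-low, and without testis or without both gonads 5 and 7 were eye-low. Precursor-only sequences, when added to the arm overlapping them, gave 1 start call in place of 0, miR-100a-5p. Allowing a single other library, an alternative added after seeing the data, gave 1 arm call (miR-727) and 1 start call (miR-124a-3p) in place of 0. The cause of these changes was not tested, beyond the fewer names or libraries that an alternative leaves. No paired analysis was possible because each tissue has 1 library. Depth limits the testis most, where 1 read is 18.3 CPM.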
